A study of Homo sapiens with 15 samples.

Results

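The genes described here were 40 genes of DNA replication and repair synthesis, taken by symbol for their known roles: origin licensing, helicase activation, polymerases, the sliding clamp and its loader, Okazaki fragment joining, nucleotide supply, chromatin assembly and fork repair, and control of entry into S phase. They were 40 of the 69215 genes in the deposited count tables, each symbol matched 1 identifier, and all 40 passed the filter on low counts. They were chosen with earlier results of these data known. The shares of all genes set beside their counts are therefore a scale and not a test of the group. Their RNA was measured in Caco-2, a cell line from a human colon carcinoma whose confluent layers resemble absorptive enterocytes. Polysorbate 80 (PS80) was given in 5 libraries, polysorbate 20 (PS20) in 5 others, and 5 were unexposed controls. Both food emulsifiers were used at 0.05% for 24 h. The emulsifiers share a polyethoxylated sorbitan head and differ in the fatty acid attached to it, oleic acid in PS80 and the shorter lauric acid in PS20. All 15 libraries came from 1 cell line. The labels do not say whether libraries of a group came from separate cultures, so the p-values measure the spread between these libraries, which may be technical.

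Cells copy their DNA once per cycle. In G1, the origin recognition complex, CDC6 and CDT1 load the MCM helicase onto origins, and in S phase MCM10, CDC45 and the GINS complex turn it into an active fork at which polymerases, the clamp PCNA and ligase copy both strands. Transcription of many of these genes rises at the G1 to S transition under E2F factors, which are held back by the retinoblastoma protein until cyclin-dependent kinases release them. In the gut, replication is a property of the crypt, and in culture Caco-2 cells divide until they are confluent and then differentiate. In bulk RNA, fewer cells in S phase and less of these RNAs per cell cannot be told apart.

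Promoters were read because the group is known for E2F sites next to its start sites. The words searched were TTTCCCGC, TTTCGCGC, TTTGCCGC and TTTGGCGC on both strands, in the 250 bases before each start in RefSeq sequence of build GRCh38.p14. A window was at hand for 34 of the 40 genes, and 15 of them (44.1%) held at least 1 of these words, against 928 of 27305 genes (3.4%) in the whole table. The CCAAT word stood in 21 of the 34 (61.8%), against 37% of all genes, and the word TTTGAA in 1 of the 34 (2.94%), against 16.1% of all genes. A match is a description of letters, not a measured site. The 120 bases before the start follow for 6 genes with a match, which stand for regulation (E2F1), licensing (CDT1, MCM6), polymerase (POLE), clamp (PCNA) and ligase (LIG1). Capitals mark the matched words, found without overlap. In MCM6 the word GCGCGAAA, the reverse complement of TTTCGCGC, overlaps the marked word and is not fully in capitals. The stretches lie at chr20:33686386-33686505 (E2F1, minus strand), chr16:88803669-88803788 (CDT1, plus), chr2:135876444-135876563 (MCM6, minus), chr12:132687343-132687462 (POLE, minus), chr20:5126623-5126742 (PCNA, minus) and chr19:48170345-48170464 (LIG1, minus).
E2F1: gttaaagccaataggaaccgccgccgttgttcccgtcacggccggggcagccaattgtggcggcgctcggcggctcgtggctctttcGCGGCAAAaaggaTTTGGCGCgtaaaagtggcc
CDT1: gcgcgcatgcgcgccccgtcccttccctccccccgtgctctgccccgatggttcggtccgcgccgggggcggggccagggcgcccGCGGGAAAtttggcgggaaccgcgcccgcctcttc
MCM6: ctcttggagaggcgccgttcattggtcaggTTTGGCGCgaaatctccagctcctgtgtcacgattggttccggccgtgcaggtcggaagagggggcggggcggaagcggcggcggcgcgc
POLE: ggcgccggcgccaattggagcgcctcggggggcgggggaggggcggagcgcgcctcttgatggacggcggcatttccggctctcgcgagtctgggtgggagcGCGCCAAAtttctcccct
PCNA: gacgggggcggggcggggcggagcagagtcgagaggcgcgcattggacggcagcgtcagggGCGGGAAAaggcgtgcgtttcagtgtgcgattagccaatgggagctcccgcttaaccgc
LIG1: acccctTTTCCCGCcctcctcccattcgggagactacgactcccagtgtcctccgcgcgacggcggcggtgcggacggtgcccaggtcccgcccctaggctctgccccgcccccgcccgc
The stretches of 3 genes with no such word in their window are shown because these genes had the lowest (FEN1, RRM2) or highest (RFC4) fold changes with PS20. They lie at chr11:61792791-61792910 (FEN1, plus), chr2:10122619-10122738 (RRM2, plus) and chr3:186806483-186806602 (RFC4, minus).
FEN1: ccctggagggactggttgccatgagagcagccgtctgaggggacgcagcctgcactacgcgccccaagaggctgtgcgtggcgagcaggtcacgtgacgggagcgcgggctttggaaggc
RRM2: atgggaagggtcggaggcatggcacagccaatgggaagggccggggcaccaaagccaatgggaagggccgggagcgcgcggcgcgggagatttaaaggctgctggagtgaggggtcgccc
RFC4: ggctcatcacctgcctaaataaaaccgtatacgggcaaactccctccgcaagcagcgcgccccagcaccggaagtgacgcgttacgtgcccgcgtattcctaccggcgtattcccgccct

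Libraries held 6769409 to 42271053 counts with PS80, 6749086 to 17251564 with PS20 and 4183096 to 13616301 in control. PS80 replicates 1, 3, 4 and 5 were counted with another version of the counting program than the other 11 libraries, per the file headers, and in those 4 libraries a difference of counting and an effect of PS80 cannot be told apart. Replicate 2, the PS80 library counted like the rest, also held the most counts and stood apart in histone genes. Of 11 epithelial markers, 9 were above 10 CPM (read counts scaled to library size) in all libraries, while KRT20 was at 0 and CDX1 under 1 CPM. Of 13 markers of fibroblasts, endothelium and blood, 8 stayed under 1 CPM, HBB was at 0 in all 15 libraries, and the summed level was 130.3 to 180.9 CPM with PS80, 138.9 to 158.6 CPM with PS20 and 146.3 to 166.6 CPM in control, mostly from COL1A1. Of 4 of these markers that could be tested by edgeR, PDGFRB, a receptor of fibroblasts and pericytes, averaged 16.1 CPM with PS80, 14.9 CPM with PS20 and 29.4 CPM in control and was lower with PS80 (log2 fold change -0.85, adjusted p = 7.84e-05) and with PS20 (-1.01, adjusted p = 6.19e-06), and PECAM1 of endothelium was higher with PS80 (0.56, adjusted p = 0.0103). The summed epithelial markers were 8694 to 9410 CPM with PS20, against 10290 to 12110 CPM in control, with KRT8, KRT18 and KRT19 lower. KRT8 alone averaged 2678 CPM with PS20 and 4426 CPM in control. Of the 9 epithelial markers tested, 4 were lower with PS20 and 3 were higher (CDX2, ALPI and CDH1), beside 23.9% and 24.4% of all genes. Mitochondrial genes took 1.45% to 2.97% of counts with PS80, 2.03% to 2.58% with PS20 and 1.5% to 1.91% in control, and PS80 replicate 2 was the highest of all 15 libraries. The part of these markers and of the mitochondrial share in the results was not tested.

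More of the replication genes were higher than lower with PS80, and more were lower than higher with PS20. Levels are CPM, differences are log2 fold changes with their standard error, and adjusted p-values come from the quasi-likelihood test of edgeR, adjusted by Benjamini and Hochberg over 12769 genes and called at 0.05. All p-values of single genes below come from that test. With PS80, 19 of the 40 genes passed against control, where 33.4% of all genes tested passed. Of these, 17 were higher, against 17.4% of all genes, and 2 were lower, against 16%. With PS20, 27 passed against control, beside 48.3% of all genes. Of these, 2 were higher, against 24.4% of all genes, and 25 were lower, against 23.9%. The members' median log2 fold change was 0.16 with PS80 and -0.28 with PS20, beside medians of 0.0017 and 0.0105 over all genes tested. Without control replicate 2 the PS80 median was 0.0943, and without PS80 replicate 2 the count lower with PS80 was 0, with 16 higher. All 5 PS80 libraries lay above all 5 controls for 12 members, against 10.3% of all genes, and below them for 1, against 9.3%. All 5 PS20 libraries lay below all controls for 17, against 16.3%, and above them for 1, against 16.2%. Fold changes against control ran between 0.902 and 1.36 with PS80 and between 0.646 and 1.32 with PS20.

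Among the 15 genes whose promoter window held an E2F-type word, 8 were higher and 0 lower with PS80 than in control, 0 were higher and 12 lower with PS20 than in control, and 15 were higher and 0 lower with PS80 than with PS20. Among the 19 with a window and no match, the counts were 8 higher and 2 lower, 2 higher and 9 lower, and 14 higher. These stand beside 17.4% of all genes higher and 16% lower with PS80, 24.4% higher and 23.9% lower with PS20, and 18.2% higher with PS80 than with PS20. The median log2 fold changes of the genes with a match were 0.216, -0.311 and 0.503 in these 3 comparisons, and those of the genes without were 0.14, -0.175 and 0.328.

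**Figure D1:**
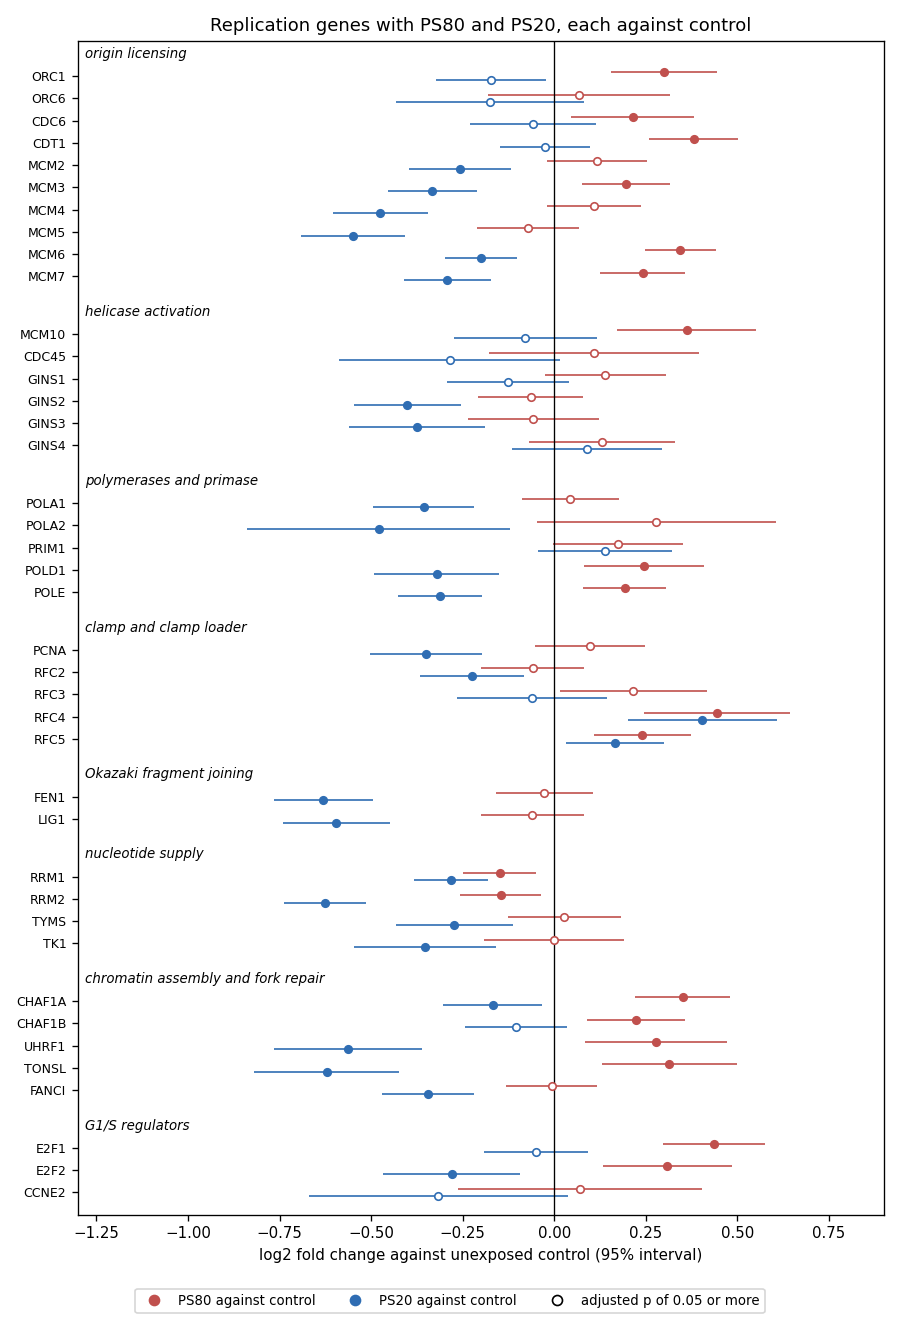
Log2 fold change against unexposed control (x axis, 95% interval) for each of the 40 genes, in blocks by role, with PS80 in red above PS20 in blue; open points had an adjusted p of 0.05 or more. The blue points lie left of 0 for 36 of 40 genes and the red points right of 0 for 30 of 40, and RFC4 and RFC5 have both points to the right.

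**Figure D2:**
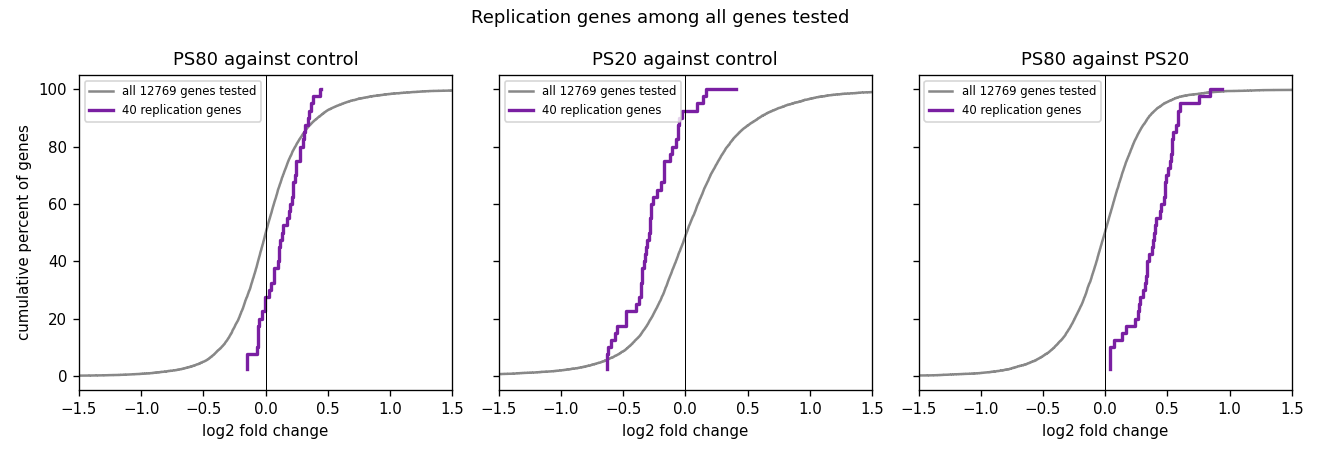
Cumulative percent of genes (y axis) by log2 fold change (x axis) for the 40 replication genes (purple) and all 12769 genes tested (grey), in each comparison. The purple curve stands right of the grey one through most of the PS80 panel (median 0.16), left of it with PS20 (median -0.28) and right of it in PS80 against PS20 (median 0.40).

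Origin licensing factors were the largest block. Of 10 genes, 6 (60%) were higher with PS80, beside 17.4% of all genes, and 6 (60%) were lower with PS20, beside 23.9%. The loaders CDT1, ORC1 and CDC6 were among those higher with PS80, and the 6 lower with PS20 were the subunits of the MCM ring. CDT1, which brings the helicase to the origin, had 154, 163, 152, 138 and 139 CPM in PS80 libraries and 114, 121, 106, 110.3 and 114 CPM in PS20 libraries. Control libraries had 121, 109.5, 118, 106 and 120.2 CPM. The PS80 libraries lay above all others, and the PS20 and control ranges overlapped. CDT1 was higher with PS80 than in control (log2 fold change 0.38 ± 0.059, adjusted p = 5.39e-05), and its difference between PS20 and control was -0.025, with a 95% interval of -0.15 to 0.10. ORC1, the largest subunit of the origin recognition complex, had 36.6, 41.2, 39.4, 35.9 and 39 CPM in PS80 libraries and 29.1, 29.5, 26, 27.3 and 27.7 CPM in PS20 libraries. Control libraries had 30.2, 27.2, 33.1, 33.1 and 33.3 CPM. All PS80 libraries were again above all others, with a difference of 0.30 ± 0.069, adjusted p = 0.00226 against control, while the PS20 difference (-0.17 ± 0.073, adjusted p = 0.055) did not pass with all libraries. It passed without PS20 replicate 2 (adjusted p = 0.0469), control replicate 1 (0.0455) or control replicate 2 (0.012). CDC6, the ATPase that works with CDT1, averaged 90.2 ± 10.1 CPM with PS80, 74.6 ± 5.21 CPM with PS20 and 77.7 ± 8.05 CPM in control (SD, n = 5 each), and its groups overlapped. Its rise with PS80 (0.21 ± 0.081, adjusted p = 0.0467) was no longer called in 10 of the 15 fits without 1 library, in which adjusted p-values reached 0.141. ORC6, another subunit of the origin complex, averaged 30.8 ± 4.84 CPM with PS80, 25.4 ± 1.81 CPM with PS20 and 28.7 ± 5.34 CPM in control and passed in no comparison with all libraries.

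Within the MCM ring, the 6 subunits that encircle DNA as the replicative helicase, PS20 differences lay between -0.55 (MCM5) and -0.20 (MCM6), and every PS20 library lay below every control for all 6. MCM5 had 93, 103, 104, 102 and 108 CPM in PS80 libraries and 67.3, 72.7, 71.7, 74.2 and 80.3 CPM in PS20 libraries. Control libraries had 104, 91.5, 119, 109 and 115 CPM. Its PS80 and control libraries overlapped (-0.072 ± 0.067, adjusted p = 0.435), and PS20 was lower than control (-0.55 ± 0.069, adjusted p = 1.37e-06). MCM4 had 295, 263, 312, 304 and 296 CPM in PS80 libraries and 198, 186, 201, 185 and 209 CPM in PS20 libraries. Control libraries had 265, 232, 289, 288 and 287 CPM. It was lower with PS20 (-0.48 ± 0.062, adjusted p = 2.52e-06), and its PS80 difference (0.11 ± 0.061, adjusted p = 0.181) did not pass unless replicate numbers were kept as pairs (0.11, adjusted p = 0.0481). MCM6 had 402, 380.2, 371, 369.6 and 378 CPM in PS80 libraries and 279, 245, 253, 252 and 275 CPM in PS20 libraries. Control libraries had 312, 282, 305, 300.3 and 298 CPM. Its 3 groups did not overlap: PS80 was highest, with a log2 fold change of 0.34 ± 0.047, adjusted p = 1.42e-05 against control, and PS20 lowest, with -0.20 ± 0.047, adjusted p = 0.00156. MCM3 and MCM7 had the same order of groups without overlap, with log2 fold changes of 0.20 ± 0.058, adjusted p = 0.012 and 0.24 ± 0.056, adjusted p = 0.00235 for PS80 and -0.33 ± 0.059, adjusted p = 8.15e-05 and -0.29 ± 0.057, adjusted p = 0.00024 for PS20, each against control. Some gaps were narrow. The highest PS20 library and the lowest control, replicate 2, had 220 and 220.1 CPM for MCM3 and 225.1 and 225.9 CPM for MCM7. For MCM3, the highest control had 282.2 CPM and the lowest PS80 library 283.4 CPM. MCM2 averaged 200.1 ± 11.8 CPM with PS80, 154 ± 14 CPM with PS20 and 185 ± 16.4 CPM in control and was lower with PS20 (-0.26 ± 0.067, adjusted p = 0.00328); 23.6% of its exonic bases lie in an exon of an opposite-strand gene, which counting without strand cannot separate.

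Of 6 genes of helicase activation, 1 (16.7%) was higher with PS80, beside 17.4% of all genes, and 2 (33.3%) were lower with PS20, beside 23.9%. MCM10, which helps to start the assembled helicase, had 62.6, 53.9, 66.5, 68.5 and 70.4 CPM in PS80 libraries and 49.6, 39.2, 49.9, 49.1 and 47.9 CPM in PS20 libraries. Control libraries had 50.3, 40.3, 51.5, 50.5 and 57.9 CPM. PS80 replicate 2 lay inside the control range and the other PS80 libraries above it. MCM10 was higher with PS80 than in control (0.36 ± 0.091, adjusted p = 0.00436), and its PS20 difference did not pass (-0.079 ± 0.094, adjusted p = 0.513). In the GINS complex, a ring of 4 subunits that joins MCM and CDC45, GINS2 and GINS3 were lower with PS20 and GINS1 and GINS4 were not called. GINS2 had 94.7, 84.5, 97.4, 90.5 and 94.4 CPM in PS80 libraries and 63.3, 75.7, 77.8, 70.9 and 76.1 CPM in PS20 libraries. Control libraries had 92.6, 83.6, 106, 97.8 and 103 CPM. All PS20 libraries lay below all others, and PS20 was lower than control (-0.40 ± 0.070, adjusted p = 8.03e-05), while PS80 and control overlapped. GINS3 averaged 18.8 ± 1.43 CPM with PS80, 15 ± 1.24 CPM with PS20 and 19.2 ± 1.72 CPM in control, with PS20 lower than control (-0.37 ± 0.090, adjusted p = 0.00167). GINS1 averaged 124 ± 4.97 CPM with PS80, 103 ± 7.48 CPM with PS20 and 113 ± 15.8 CPM in control with control replicate 2 far below the other controls, and its PS20 difference (-0.13 ± 0.080, adjusted p = 0.208) passed without that library (adjusted p = 0.0055). GINS4 averaged 22 ± 1.31 CPM with PS80, 21.3 ± 0.687 CPM with PS20 and 19.7 ± 3.6 CPM in control and did not pass in any comparison; 23.4% of its exonic bases are shared with opposite-strand genes. CDC45, the remaining partner of the active helicase, averaged 18 ± 2.09 CPM with PS80, 13.6 ± 2.08 CPM with PS20 and 16.4 ± 3.98 CPM in control. Its PS20 difference (-0.29 ± 0.14, adjusted p = 0.111) passed without PS20 replicate 5 (adjusted p = 0.0396), control replicate 1 (0.0405) or control replicate 2 (0.0225).

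Of 5 polymerase and primase genes, 4 were lower with PS20, beside 23.9% of all genes. The catalytic subunits of the leading and lagging strand polymerases were also higher with PS80 (2 of 5, beside 17.4% of all genes). POLE, the catalytic subunit of polymerase epsilon, which copies the leading strand, had 107, 111, 106, 116 and 99.9 CPM in PS80 libraries and 80.5, 73.4, 74.2, 78.9 and 74.7 CPM in PS20 libraries. Control libraries had 98, 92.5, 96, 97.7 and 89.3 CPM. The 3 groups did not overlap, with log2 fold changes of 0.19 ± 0.054, adjusted p = 0.00926 for PS80 and -0.31 ± 0.055, adjusted p = 9.17e-05 for PS20, each against control. POLD1, its counterpart in polymerase delta on the lagging strand, had 71, 84.8, 68, 63 and 63.5 CPM in PS80 libraries and 49.7, 47.7, 43, 45.1 and 53.1 CPM in PS20 libraries. Control libraries had 57.8, 59.5, 55.7, 60.3 and 62.7 CPM. Its groups did not overlap either, but PS80 replicate 2 was the highest library, and the PS80 difference (0.25 ± 0.079, adjusted p = 0.0201) was not called without it (adjusted p = 0.0785) or without control replicate 3 (0.0522). The PS20 difference of POLD1 was -0.32 ± 0.082, adjusted p = 0.00268. POLA1, the catalytic subunit of the polymerase that extends primers, averaged 48.2 ± 3.26 CPM with PS80, 36.3 ± 2.19 CPM with PS20 and 46.6 ± 2.32 CPM in control (SD, n = 5 each) and was lower with PS20 (-0.36 ± 0.066, adjusted p = 0.000138). POLA2, its regulatory subunit, was a low gene with 5.35, 5.53, 5.65, 4.99 and 4.69 CPM in PS80 libraries and 2.65, 4.31, 2.93, 3.01 and 2.63 CPM in PS20 libraries. Control libraries had 3.85, 3.57, 3.81, 4.9 and 5.04 CPM. PS20 replicate 2 overlapped the controls; the PS20 difference (-0.48 ± 0.17, adjusted p = 0.0266) was lost without PS20 replicate 1, 3 or 5 or control replicate 4 or 5 (adjusted p up to 0.0954), and 40.03% of the exonic bases of POLA2 are shared with other genes. PRIM1, the catalytic primase subunit that lays down the RNA primer, averaged 28.1 ± 2.03 CPM with PS80, 27.4 ± 1.88 CPM with PS20 and 25 ± 3.24 CPM in control and passed in no comparison; 22.2% of its exonic bases are shared.

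Of the 5 clamp and clamp loader genes, PCNA and RFC2 were lower with PS20 (40%, beside 23.9% of all genes). RFC4 and RFC5 were higher with PS20 (40%, beside 24.4%) and with PS80 (40%, beside 17.4%). PCNA, the ring that holds polymerases on DNA, had 218, 199, 253, 228 and 234 CPM in PS80 libraries and 167, 162, 162, 159 and 179 CPM in PS20 libraries. Control libraries had 205, 172, 233, 222 and 225 CPM. PS20 replicate 5 was above control replicate 2, and otherwise all PS20 libraries lay below all controls. PS20 was lower than control (-0.35 ± 0.073, adjusted p = 0.00047); PS80 and control overlapped (0.10 ± 0.072, adjusted p = 0.318). RFC4, a subunit of the clamp loader, had 36.5, 33, 30.6, 29.2 and 33.3 CPM in PS80 libraries and 30.5, 34.8, 28.4, 33.5 and 32.3 CPM in PS20 libraries. Control libraries had 21.6, 24.4, 17.6, 24.9 and 29.2 CPM. The controls were lowest, and control replicate 5, the highest of them, lay just below the lowest PS80 library and inside the PS20 range. RFC4 was higher with PS80 (0.44 ± 0.10, adjusted p = 0.00126) and with PS20 (0.40 ± 0.10, adjusted p = 0.00182) than in control. RFC5 had 65.8, 58, 61.7, 59.4 and 66.3 CPM in PS80 libraries and 58, 59.3, 58.2, 57.8 and 62.4 CPM in PS20 libraries. Control libraries had 52.8, 46.1, 54.1, 57.1 and 53.3 CPM. Every library of both exposures exceeded every control, with log2 fold changes of 0.24 ± 0.064, adjusted p = 0.00629 for PS80 and 0.17 ± 0.065, adjusted p = 0.0394 for PS20; the PS20 call was lost in 7 of the 15 fits without 1 library, in which adjusted p-values reached 0.135. RFC2 averaged 61.4 ± 4.12 CPM with PS80, 54.7 ± 2.65 CPM with PS20 and 64 ± 5.83 CPM in control and was lower with PS20 (-0.22 ± 0.069, adjusted p = 0.0104). RFC3 averaged 65.4 ± 5.71 CPM with PS80, 53.7 ± 2.81 CPM with PS20 and 56.5 ± 9.94 CPM in control; its PS80 difference (0.22 ± 0.10, adjusted p = 0.089) did not pass, but passed with replicate numbers kept as pairs (0.23, adjusted p = 0.0111) and without PS80 replicate 2 (0.0303) or control replicate 3 (0.0448).

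**Figure D3:**
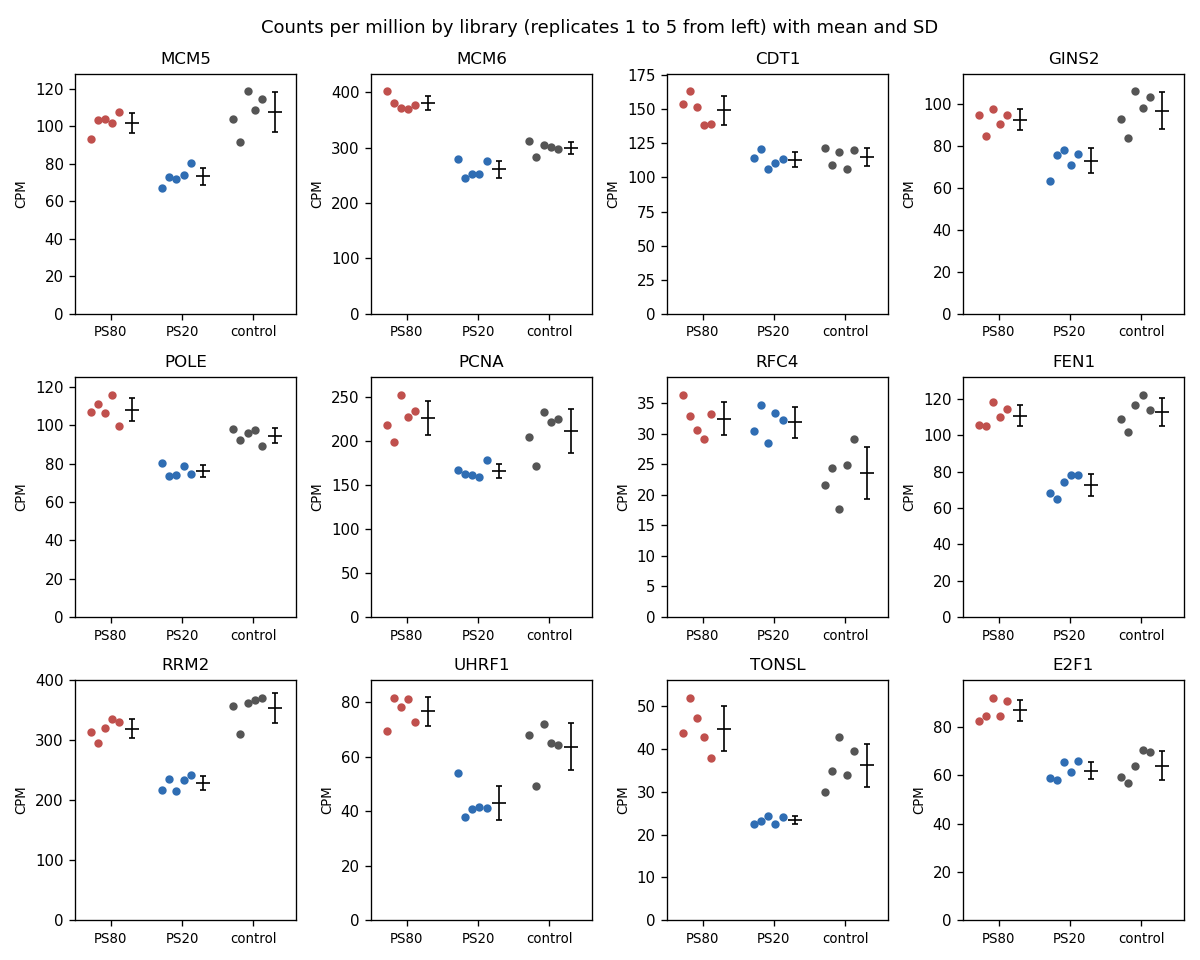
CPM (y axis, from 0) in each library of the PS80 (red), PS20 (blue) and control (grey) groups for 12 of the genes, replicates 1 to 5 from left, with mean and SD beside them. FEN1, RRM2, TONSL, MCM5 and GINS2 are lowest with PS20, CDT1 and E2F1 highest with PS80, and RFC4 lowest in control.

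Both genes of Okazaki fragment joining were lower with PS20, beside 23.9% of all genes, with fold changes among the lowest of the group. Neither was called with PS80, where 17.4% of all genes were higher and 16% lower. FEN1, the nuclease that trims the flap of each fragment, had 106, 105, 118, 110.2 and 115 CPM in PS80 libraries and 68.3, 64.7, 74.5, 78.1 and 77.9 CPM in PS20 libraries. Control libraries had 109, 102, 116, 122 and 114 CPM. All PS20 libraries lay below all others while PS80 and control overlapped. FEN1 was 35.4% lower with PS20 than in control (-0.63 ± 0.065, adjusted p = 1.12e-07), and its PS80 difference was -0.027, with a 95% interval of -0.16 to 0.10. LIG1, the ligase that seals the fragments, had 63.3, 73.1, 77.8, 73.6 and 69.2 CPM in PS80 libraries and 50.01, 42.2, 49, 51.1 and 53.7 CPM in PS20 libraries. Control libraries had 72.9, 69.5, 79.3, 74 and 76.6 CPM. The pattern was the same, with a log2 fold change of -0.59 ± 0.070, adjusted p = 6.04e-07 for PS20, and for PS80 a difference of -0.060 with an interval of -0.20 to 0.081.

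All 4 genes of nucleotide supply were lower with PS20, beside 23.9% of all genes. The 2 subunits of ribonucleotide reductase were the members lower with PS80, beside 16% of all genes. RRM2, the small subunit of the enzyme that makes deoxyribonucleotides, had 314, 296, 321, 335 and 331 CPM in PS80 libraries and 218, 236, 216, 233 and 242 CPM in PS20 libraries. Control libraries had 357, 310.1, 363, 367 and 371 CPM. PS20 libraries lay below all others, and 1 control, replicate 2, lay inside the PS80 range. RRM2 was lower with PS20 (-0.63 ± 0.054, adjusted p = 1.04e-08) and with PS80 (-0.15 ± 0.054, adjusted p = 0.0398); the PS80 call was lost in 7 of the 15 fits without 1 library, in which adjusted p-values reached 0.11. RRM1, the large subunit, had 253, 237, 256, 252 and 254 CPM in PS80 libraries and 216, 247, 221, 219.6 and 237 CPM in PS20 libraries. Control libraries had 259.9, 273, 289, 275 and 292 CPM. Both exposures lay below all controls, with log2 fold changes of -0.15 ± 0.048, adjusted p = 0.0212 for PS80 and -0.28 ± 0.049, adjusted p = 6.37e-05 for PS20; without PS80 replicate 2, the lowest PS80 library, the PS80 adjusted p was 0.0609, and without control replicate 5 it was 0.0649. TYMS, thymidylate synthase, averaged 39.3 ± 1.38 CPM with PS80, 31.8 ± 3.01 CPM with PS20 and 38.7 ± 3.82 CPM in control (SD, n = 5 each) and was lower with PS20 (-0.27 ± 0.077, adjusted p = 0.00574), with 47.9% of its exonic bases shared with ENOSF1 and TYMSOS on the opposite strand. TK1, the thymidine kinase of S phase, averaged 122 ± 8.51 CPM with PS80, 95.8 ± 7.54 CPM with PS20 and 123 ± 22.6 CPM in control and was lower with PS20 (-0.35 ± 0.094, adjusted p = 0.00369), with a PS80 interval of -0.19 to 0.19.

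Of 5 genes of chromatin assembly and fork repair, 4 were higher with PS80, beside 17.4% of all genes. With PS20, 4 were lower, beside 23.9%. TONSL, which binds new histones at forks and takes part in their repair, had 43.6, 52, 47.3, 42.9 and 37.8 CPM in PS80 libraries and 22.4, 23.2, 24.4, 22.5 and 24.1 CPM in PS20 libraries. Control libraries had 29.9, 34.8, 42.9, 33.9 and 39.5 CPM. All PS20 libraries lay below all others, and the PS80 and control ranges overlapped. TONSL was higher with PS80 (0.31 ± 0.089, adjusted p = 0.00928) and lower with PS20 (-0.62 ± 0.10, adjusted p = 1.69e-05) than in control. UHRF1, which reads half-methylated DNA behind the fork and recruits the maintenance methyltransferase, had 69.5, 81.6, 78.2, 81.2 and 72.8 CPM in PS80 libraries and 54, 37.9, 40.7, 41.4 and 41 CPM in PS20 libraries. Control libraries had 68, 49.2, 71.9, 65.1 and 64.5 CPM. PS20 replicate 1 was above the other PS20 libraries and overlapped the lowest control. UHRF1 was lower with PS20 (-0.56 ± 0.10, adjusted p = 6.64e-05) and higher with PS80 (0.28 ± 0.093, adjusted p = 0.0254), but the PS80 call was lost without PS80 replicate 2 (adjusted p = 0.0523), PS80 replicate 4 (0.0522) or control replicate 2 (0.0827). CHAF1A, the large subunit of the chromatin assembly factor that places histones on new DNA, had 59.6, 63.2, 64.1, 67.6 and 66.9 CPM in PS80 libraries and 45.4, 43.1, 43.4, 47 and 45.7 CPM in PS20 libraries. Control libraries had 50.7, 44, 54.8, 51.7 and 51.9 CPM. PS80 lay above all other libraries, with a log2 fold change of 0.35 ± 0.062, adjusted p = 0.00023 against control. The PS20 difference of CHAF1A (-0.17 ± 0.065, adjusted p = 0.0358) was lost without PS20 replicate 2 or 3 or control replicate 3, 4 or 5, with adjusted p-values of up to 0.0842. CHAF1B, the middle subunit, averaged 44.9 ± 0.963 CPM with PS80, 35.9 ± 2.07 CPM with PS20 and 38.5 ± 3.4 CPM in control and was higher with PS80 (0.22 ± 0.065, adjusted p = 0.0106). FANCI, which works with FANCD2 in the repair of DNA crosslinks, averaged 95.6 ± 1.57 CPM with PS80, 75.8 ± 5.19 CPM with PS20 and 96.3 ± 7.32 CPM in control and was lower with PS20 (-0.35 ± 0.061, adjusted p = 7.89e-05), with a PS80 interval of -0.13 to 0.12.

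Of 3 regulators of S-phase entry, E2F1 and E2F2 were higher with PS80 (66.7%, beside 17.4% of all genes). With PS20, 1 was lower (33.3%, beside 23.9%). The related E2F3, from the list of G1 to S control, was higher with PS80 (0.44 ± 0.074, adjusted p = 0.000138). It was also higher with PS20 (0.36 ± 0.076, adjusted p = 0.000439). E2F1 had 82.4, 84.6, 92.2, 84.6 and 91 CPM in PS80 libraries and 58.9, 58.1, 65.5, 61.5 and 65.9 CPM in PS20 libraries. Control libraries had 59.5, 56.7, 64.1, 70.5 and 69.7 CPM. PS80 libraries stood above all others, and PS20 and control overlapped. E2F1 was higher with PS80 (0.44 ± 0.067, adjusted p = 5.39e-05), and its PS20 difference was -0.050, with a 95% interval of -0.19 to 0.093. E2F2 had 30.6, 30.7, 27.2, 31.3 and 28.6 CPM in PS80 libraries and 21.7, 19.7, 19.7, 18.5 and 19.6 CPM in PS20 libraries. Control libraries had 25, 23, 18.1, 24.7 and 28.1 CPM. Control replicate 5 reached into the PS80 range and control replicate 3 lay below all PS20 libraries. E2F2 was higher with PS80 (0.31 ± 0.085, adjusted p = 0.00804) and lower with PS20 (-0.28 ± 0.090, adjusted p = 0.014); without control replicate 5 the PS20 adjusted p was 0.0571. All 9 distinct exon lengths of E2F2 recur in an annotated copy on a patch sequence, so its level may be understated. CCNE2, the S-phase cyclin E2, averaged 4.86 ± 0.523 CPM with PS80, 3.64 ± 0.841 CPM with PS20 and 4.61 ± 0.437 CPM in control with 37.1% of its exonic bases shared with opposite-strand genes, and passed in no comparison with all libraries.

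The emulsifiers were compared directly at the same dose and time, which also tests whether their differences from control differed, since the control cancels. A difference passed in 33 of the 40 genes, beside 35.4% of all genes. PS80 was higher in all 33, against 18.2% of all genes, and lower in 0, against 17.2%. All 40 fitted differences were above 0, with a median of 0.40, and in 30 genes every PS80 library was above every PS20 library, against 11.7% of all genes. TONSL differed most of the 40 genes (1.91-fold, log2 fold change 0.94 ± 0.090, adjusted p = 1.44e-07), followed by UHRF1 (1.79-fold, 0.84 ± 0.094, adjusted p = 9.51e-07) and POLA2 (1.69-fold, 0.76 ± 0.16, adjusted p = 0.000922). FEN1 (0.60 ± 0.064, adjusted p = 4.95e-07), E2F2 (0.59 ± 0.085, adjusted p = 1.9e-05) and MCM4 (0.58 ± 0.062, adjusted p = 4.77e-07) came next. The MCM ring subunits were all higher with PS80, between 0.37 for MCM2 and 0.58 for MCM4, as were POLD1 (0.57 ± 0.079, adjusted p = 1.29e-05), POLE (0.50 ± 0.054, adjusted p = 5.9e-07), PCNA (0.45 ± 0.072, adjusted p = 6.72e-05) and RRM2 (0.48 ± 0.054, adjusted p = 1.04e-06). CDT1 (0.41 ± 0.058, adjusted p = 1.76e-05) and E2F1 (0.48 ± 0.066, adjusted p = 1.03e-05) also differed.

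The 7 genes that did not pass between the emulsifiers had 95% intervals for the log2 difference of -0.15 to 0.23 for RFC4, -0.055 to 0.20 for RFC5, -0.15 to 0.23 for GINS4, -0.14 to 0.21 for PRIM1, 0.026 to 0.30 for RFC2, -0.003 to 0.49 for ORC6 and 0.056 to 0.72 for CCNE2. ORC6 passed without PS80 replicate 2 (adjusted p = 0.02), RFC2 without PS80 replicate 1 (0.0244) or control replicate 1 (0.0399), and CCNE2 without PS80 replicate 2 (0.0357) or PS20 replicate 4 (0.0445). Of the 33 calls, CDC45, RFC3 and RRM1 were lost in some fits without 1 library: CDC45 and RRM1 in 7 of 15, with adjusted p-values up to 0.0794 and 0.0898, and RFC3 without PS80 replicate 4 (0.0521), PS80 replicate 5 (0.0704) or PS20 replicate 1 (0.0609). In a fit with PS80 replicate 2 as the sole PS80 library, whose spread was assumed to be that of the other groups, 21 members were higher with PS80 than with PS20, beside 9.78% of all genes, and 8 were higher with PS80 than in control, beside 11.4%. That library shares the counting version of the other groups but stands apart in depth, histone genes and mitochondrial share, and 1 library gives no replicate check.

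Taking each library's median log2 difference from the control mean over the 40 genes, PS80 libraries lay between 0.04 and 0.22, PS20 libraries between -0.286 and -0.177, and controls between -0.184 and 0.0899. PS80 replicate 2 was the lowest PS80 library, control replicates 1 and 2 were the lowest controls, and control replicate 2 lay at the level of the highest PS20 library. Restricted to replicates 1 and 2 of each group, 9 members were higher with PS80 than in control, beside 8.55% of all genes, and 7 were lower with PS20, beside 12.2%, with medians of 0.2506 and -0.1832. Restricted to replicates 3 to 5, 14 were higher with PS80, beside 15.7% of all genes, and 31 were lower with PS20, beside 24.4%, with medians of 0.0786 and -0.3257. In replicates 3 to 5, every PS80 library and no other library had the other counting version. Counting and PS80 cannot be told apart there.

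**Figure D4:**
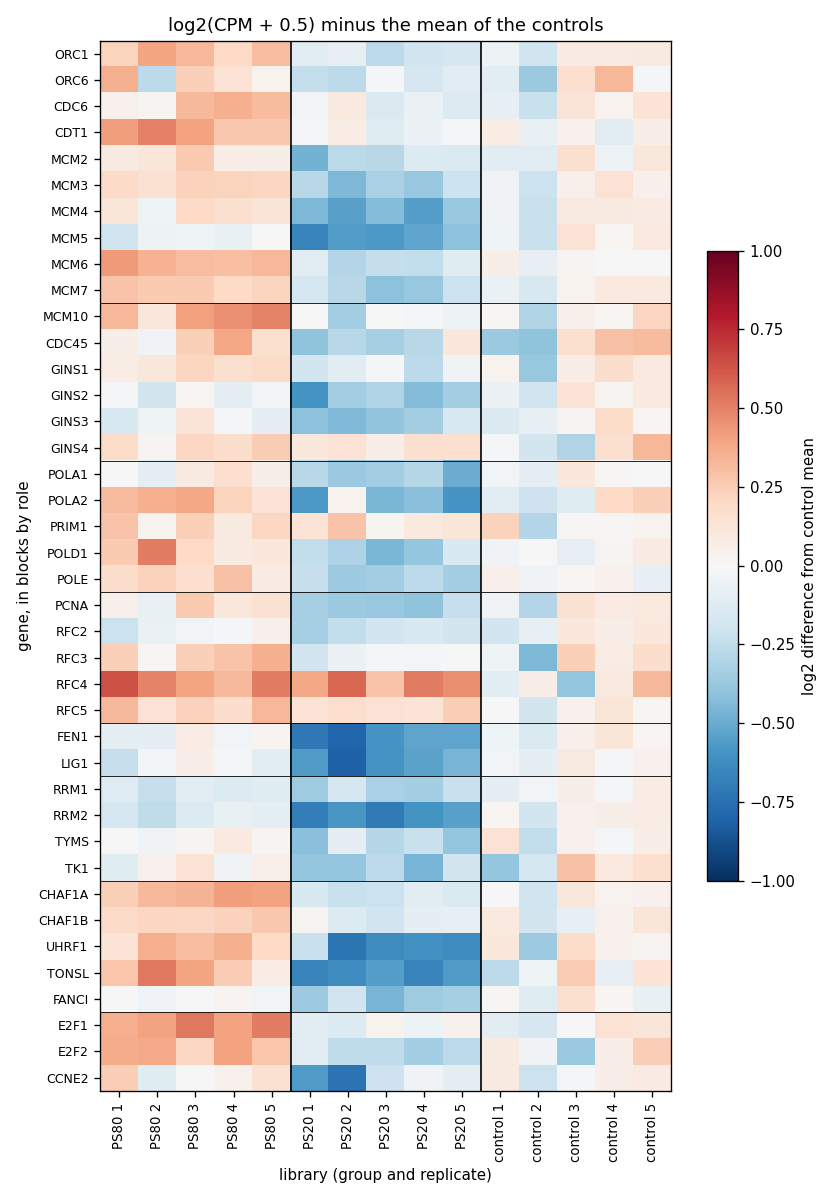
Log2(CPM + 0.5) of each gene (rows, in blocks by role) in each library (columns), minus the mean of the 5 controls; red is higher and blue lower. The PS20 columns are blue in most rows apart from RFC4, RFC5, PRIM1 and GINS4, and the control replicate 2 column is paler blue in many rows.

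Other genes of the same processes were taken from lists chosen by role, with earlier results of these data known. Their counts stand beside 17.4% of all genes higher and 16% lower with PS80, and 24.4% higher and 23.9% lower with PS20. Of 36 tested genes of other replication machinery, 5 were higher and 2 lower with PS80, and 4 were higher and 13 lower with PS20, each against control. The share higher with PS80 was 13.9%, and the share lower with PS20 36.1%. TIMELESS, a fork protection factor, was lower with PS20 (-0.42 ± 0.056, adjusted p = 3.2e-06), and so was TOPBP1, an activator of the checkpoint and of the helicase (-0.50 ± 0.063, adjusted p = 1.82e-06). Of 24 other genes of nucleotide supply, 10 were higher and 3 lower with PS80, and 5 were higher and 8 lower with PS20. IMPDH2, an enzyme of guanine nucleotide synthesis, had few reads assigned, with means of 1.93 CPM with PS80, 1.03 CPM with PS20 and 4.7 CPM in control. Its assigned reads were lower with PS80 (-1.27 ± 0.19, adjusted p = 4.81e-05) and with PS20 (-2.22 ± 0.23, adjusted p = 1.01e-07), from these low levels. Whether reads of IMPDH2 were lost to genes with overlapping exons was not examined. The related IMPDH1 was higher with PS80 (0.53, adjusted p = 6.28e-06). Of 15 other genes of S-phase chromatin, 2 were higher and 0 lower with PS80, and 1 was higher and 9 lower with PS20, among them DNMT1, the maintenance methyltransferase (-0.55 ± 0.065, adjusted p = 6.77e-07). Single libraries moved the smaller counts. In the other replication machinery, the 5 genes higher with PS80 became 3 without PS80 replicate 1, control replicate 1 or control replicate 2 and 8 without PS80 replicate 2. The 2 lower became 1 without PS80 replicate 2 or control replicate 4 and 4 without PS80 replicate 5. In S-phase chromatin, the 2 higher with PS80 became 0 without control replicate 2 or 3 and 1 without PS80 replicate 2, 3 or 5 or control replicate 1, and the 1 higher with PS20 became 0 without PS20 replicate 1, 2, 4 or 5 or control replicate 1, 2, 3 or 5.

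Of 32 other repair genes, 11 were higher and 3 lower with PS80, and 5 were higher and 6 lower with PS20. The PS20 shares were 15.6% and 18.8%, both under those of all genes (24.4% and 23.9%), and the share higher with PS80 was 34.4%, against 17.4%. UNG, the uracil glycosylase, was lower with PS20 (-0.64 ± 0.070, adjusted p = 2.19e-07). Of 28 genes of G1 to S control, 6 were higher and 4 lower with PS80, and 4 were higher and 12 lower with PS20. CCND1, cyclin D1, was higher with PS80 (0.54 ± 0.054, adjusted p = 4.36e-07) and with PS20 (0.14 ± 0.054, adjusted p = 0.0384), whereas CCNE1, cyclin E1, was higher with PS80 (0.32 ± 0.076, adjusted p = 0.00294) and lower with PS20 (-0.24 ± 0.079, adjusted p = 0.0177). The 4 genes of this list higher with PS20 became 2 without PS20 replicate 3. SKP2, the ubiquitin ligase subunit that marks the inhibitor p27 for degradation, was lower with PS80 (-0.27 ± 0.070, adjusted p = 0.00573) and with PS20 (-0.64 ± 0.071, adjusted p = 2.85e-07). CDKN1A, the p21 inhibitor of cyclin-dependent kinases, averaged 12.1 ± 3.42 CPM with PS80, 14.9 ± 1.85 CPM with PS20 and 10.98 ± 4.44 CPM in control and passed in no comparison. Of 20 p53 targets, 3 were higher and 3 lower with PS80, and 8 were higher and 5 lower with PS20.

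Genes of the later cycle were mostly lower with PS20, and more of the mitotic and G2 genes were lower than higher with PS80. Of 35 tested mitotic and G2 genes, 3 were higher and 14 (40%) lower with PS80, with a median of -0.0852. With PS20, 1 was higher and 25 (71.4%) lower, with a median of -0.26. Of all genes, 17.4% were higher and 16% lower with PS80, and 24.4% were higher and 23.9% lower with PS20. The 1 mitotic gene higher with PS20 became 2 without PS20 replicate 1 or control replicate 4. MKI67, the Ki-67 antigen, averaged 371 ± 43.9 CPM with PS80, 243.7 ± 36.5 CPM with PS20 and 389.6 ± 14.4 CPM in control. It was lower with PS20 (-0.68 ± 0.084, adjusted p = 1.12e-06), with a PS80 difference of -0.070 ± 0.082 (adjusted p = 0.552). TOP2A, the topoisomerase of chromosome separation, averaged 491 ± 25.6 CPM with PS80, 451 ± 33.3 CPM with PS20 and 525 ± 15.8 CPM in control and was lower with PS20 (-0.22 ± 0.052, adjusted p = 0.00149). CENPE, a kinetochore motor, was lower with PS80 (-0.72 ± 0.11, adjusted p = 5.31e-05) and with PS20 (-1.41 ± 0.12, adjusted p = 7.12e-09). Of 44 replication-dependent histone genes, which mostly lack a poly(A) tail and have near-identical copies, 15 were tested, and PS80 replicate 2 stood 3.42 above the control mean in their median log2 level while the other PS80 libraries stood between -0.73 and -0.30. With that library, 7 histone genes were higher and 0 lower with PS80 than in control (median 1.76), and without it 0 were higher and 6 lower (median -0.52). Without control replicate 4 the 7 higher became 2. With PS20, 4 were lower than in control, and 9 without PS80 replicate 2, which enters that comparison through the shared spread.

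**Figure D5:**
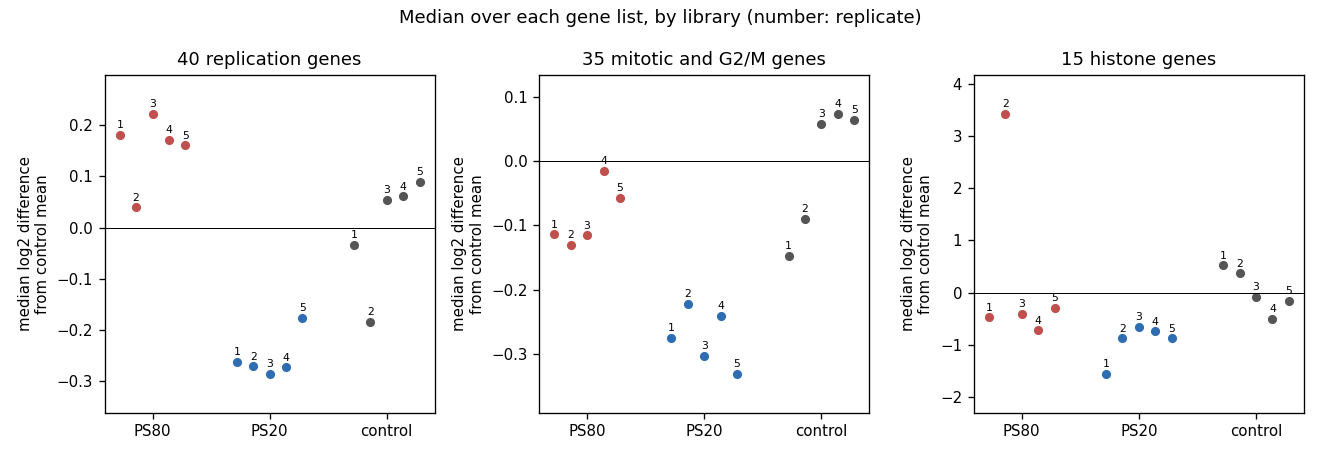
Median log2 difference from the control mean (y axis) over the 40 replication genes, 35 mitotic and G2 genes and 15 histone genes in each library, numbered by replicate. PS20 libraries lie lowest in the first 2 panels, apart from control replicate 2 in the first, and PS80 replicate 2 stands at 3.42 in the histone panel.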

How the data were processed

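RNA was extracted with a column kit and polyadenylated RNA was sequenced, per the labels' protocols, in 15 Caco-2 libraries in 3 groups of 5. Each deposited table gives raw counts of reads by gene, 1 library to a table, and these counts were not normalized. Per the file headers, featureCounts 2.0.0 was used by the authors, and version 2.0.3 in PS80 replicates 1, 3, 4 and 5, on GENCODE release 42. The headers show a mapping quality cut at 10 and no strand setting. Reads of a gene and of an overlapping or antisense partner can therefore not be told apart. Per the submitters' processing notes, reads were trimmed with cutadapt and aligned with STAR 2.7.9a to GRCh38, and DESeq2 1.32.0 was used. A symbol was found for 62672 of the 69215 listed genes.

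Counts were analysed with edgeR 4.0.16 in R 4.3.3. Genes were kept by filterByExpr (minimum count 10, minimum total 15), which left 12769. Trimmed mean of M-values factors ran from 0.978 to 1.02, and edgeR's common coefficient of biological variation came to 8.91%. Its quasi-likelihood test compared the groups in 1 model over all 15 libraries, with Benjamini-Hochberg adjustment over all genes tested and a threshold of 0.05. The procedure was first tested on simulated counts. CPM are counts scaled by library size and these factors, and the library medians used log2 CPM with a prior count of 2. Each log2 fold change is given with its standard error. All 40 genes are described; of other lists, up to 3 genes with the smallest p in each direction could be named, plus CDKN1A, CCND1, CCNE1, MKI67 and TOP2A. Genes that this rule names but that are withheld are not reported here. The genes and lists were chosen with earlier results of these data known.

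Replicate numbers in the titles were shared between groups. Deviations from group means of PS80 and control libraries with the same number correlated across genes by 0.1022 to 0.3042, all over 0.1. Those with different numbers correlated by -0.2415 to 0.2152, so the ranges overlap and do not settle whether the numbers mark pairs. A split of replicates 1 and 2 from 3 to 5 did show across these groups. Within each part, PS80 and control libraries correlated by 0.04306 to 0.3042, and across the parts by -0.2415 to -0.07887. What the split stands for is not in the labels. The main tests used no pairing and no term for this split. A block by replicate number takes in the split too. Values with the replicate number as a block are given where they change a call. Alternatives were DESeq2 1.42.0, other normalizations, no filter, the 2 groups alone, the replicate block, each library left out, replicates 1 and 2 or 3 to 5 alone, and PS80 replicate 2 as the sole PS80 library. Leaving libraries out for the other gene lists was added after PS80 replicate 2 was seen to stand apart. Promoter sequences are from RefSeq, build GRCh38.p14.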

Additional observations from a re-analysis of the deposited data

Results flagged for a closer look

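In 7 of the 120 gene and group combinations, 1 library lay apart from the other 4 by a gap large for 5 values at the 95% level (chance gives about 1 in 20). MCM10 had 39.2 CPM in PS20 replicate 2, with the next PS20 library at 47.93. CDC45 had 17.21 CPM in PS20 replicate 5, with the next at 13.07. POLA2 had 4.31 CPM in PS20 replicate 2, with the next at 3.012. UHRF1 had 53.99 CPM in PS20 replicate 1, with the next at 41.38. RRM1 had 236.9 CPM in PS80 replicate 2, with the next PS80 library at 251.9. In control replicate 2, GINS1 had 85.62 CPM and RRM2 310.1 CPM, with the next controls at 114.6 and 357 CPM.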

How the results depend on the processing

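Calls held under every alternative for 6 of 19 members with PS80 against control (ORC1, CDT1, MCM6, RFC4, CHAF1A and E2F1), 8 of 27 with PS20 against control (MCM4, MCM5, POLE, RFC4, FEN1, LIG1, RRM2 and TONSL) and 18 of 33 with PS80 against PS20. Most other calls were lost with fewer libraries. With replicates 1 and 2 alone, 9 members were higher and 0 lower with PS80 than in control (median 0.2506, 2025 genes called in all), 7 were lower and 1 higher with PS20 (median -0.1832, 3116 genes), and 18 were higher with PS80 than with PS20 (1397 genes); CDC6 then turned to -0.0003 between the emulsifiers. With replicates 3 to 5 alone, where all PS80 libraries and no others had the other counting version, the PS80 median was 0.0786. In that fit 1 member was higher with PS20. With PS80 replicate 2 as the sole PS80 library, assumed to vary like the other groups, 8 members were higher and 0 lower than in control (median 0.0333, 2816 genes), and 21 were higher than with PS20 (2351 genes). Members higher with PS20 numbered 1 under DESeq2 and without the filter. Members lower with PS80 numbered 0 without the filter and 1 with the 2 groups alone. Upper-quartile factors gave a PS20 median of -0.2372, and changed the split of all calls between PS80 and PS20 to 1872 higher and 2704 lower, against 2324 and 2202, and that between PS20 and control to 3676 higher and 2510 lower, against 3115 and 3049. Total counts only gave 1945 higher and 2379 lower with PS80 against control, where 2224 and 2042 were called with the trimmed mean factors, and 2032 higher and 2507 lower between PS80 and PS20.

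Without 1 library each, all genes called numbered 3566 to 4322 with PS80 against control, 5609 to 6335 with PS20 against control and 3840 to 4694 between the emulsifiers. Members higher and lower with PS80 numbered 15 to 17 and 0 to 2 (median 0.0943 to 0.1975), those higher and lower with PS20 1 to 2 and 22 to 28 (median -0.3217 to -0.2589), and those higher with PS80 than with PS20 30 to 35, with 0 lower (median 0.3905 to 0.4472).

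With the replicate number as a block, MCM4 and RFC3 were also called with PS80 (given above), CDC45 with PS20 (-0.28, adjusted p = 0.0407), and ORC6 (0.26, adjusted p = 0.0142), RFC2 (0.17, adjusted p = 0.00925) and CCNE2 (0.41, adjusted p = 0.0304) between the emulsifiers, and no other call of a member changed. Same-numbered libraries correlated by -0.02638 to 0.2483 for PS20 and control and 0.07414 to 0.2904 for PS80 and PS20. Those with different numbers correlated by -0.1737 to 0.09315 and -0.2469 to 0.1712, so pairing was not settled there either. The split of replicates 1 and 2 from 3 to 5 also showed between PS80 and PS20. Their libraries correlated by 0.02632 to 0.2904 within each part and by -0.2469 to -0.0436 across. For PS20 and control these ranges overlapped, at -0.02638 to 0.2483 within and -0.1737 to 0.02001 across. POLA2 and CCNE2 had 16 and 19 counts in their lowest libraries and the largest standard errors of the members; the part of depth in this was not tested.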

Other observations

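Genes outside replication that were listed for the same cells moved in both directions. Of 20 p53 targets, 8 were higher and 5 lower with PS20 than in control, beside 24.4% and 23.9% of all genes. SESN2, a stress-induced regulator of growth signalling, was higher (log2 fold change 0.99, adjusted p = 2.01e-07 by edgeR), as were GDF15 (0.77, adjusted p = 2.61e-05) and the death receptor TNFRSF10B (0.63, adjusted p = 6.56e-07). TP53I3 (-0.62, adjusted p = 6.41e-05), the antiproliferative gene BTG2 (-0.47, adjusted p = 0.000224) and the apoptosis effector BAX (-0.24, adjusted p = 0.00298) were lower. With PS80, 3 were higher, among them TNFRSF10B (0.38, adjusted p = 0.000606), and 3 were lower, among them TP53I3 (-0.60, adjusted p = 0.000189). SESN2 (-0.77, adjusted p = 5.62e-06) and GDF15 (-0.73, adjusted p = 4.89e-05) were lower with PS80 than with PS20, and BAX was higher (0.35, adjusted p = 0.00011).

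Of 9 epithelial markers tested, 1 was higher and 0 lower with PS80 than in control (median -0.03), beside 17.4% and 16% of all genes. With PS20, 3 were higher and 4 lower, beside 24.4% and 23.9%. Without control replicate 1, 2 were lower with PS80. The keratins KRT8 (-0.73, adjusted p = 6.49e-08), KRT18 (-0.61, adjusted p = 7.2e-07) and KRT19 (-0.50, adjusted p = 5.42e-06) were lower with PS20. CDX2, an intestinal transcription factor, was higher with PS80 (0.38, adjusted p = 0.000284) and with PS20 (0.37, adjusted p = 0.00019), and the brush border enzyme ALPI was higher with PS20 (0.42, adjusted p = 2.57e-05).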
